A study of Rattus norvegicus with 74 samples.

Results

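The libraries described here are 10 of the 15 whole-muscle libraries of sedentary rats: the 5 with the highest and the 5 with the lowest log2 ratio of Myh7 to Myh4 counts, out of 74 libraries in the series. The ratio was log2((Myh7 count + 1)/(Myh4 count + 1)), and the other 5 sedentary libraries lay between both ends. The study took male Wistar Kyoto rats, all of which drank tap water with 8% v/v deuterium oxide. Trained rats ran on a motorised treadmill for 4 weeks from 5 weeks of age, on 5 days a week, reaching sessions of 60 min at 20 m/min. Sedentary rats stood on a stationary treadmill for the same time. Tissue was taken at 9 weeks of age, 24 h after the last session, from the inner red part of the gastrocnemius (whole muscle, SM, 15 sedentary and 15 trained rats), from mitochondria pulled down with antibodies from a fresh piece of the same muscle and cleaned with proteinase K and RNase A (MT, the same 30 rats), and from the left ventricle (LV, 7 sedentary and 7 trained of these rats). Each whole-muscle library came from 1 rat. The groups at both ends of the ranking carry no label of their own: they were chosen by the measured Myh7 and Myh4 counts of the same libraries, and they are called here the high-ratio and low-ratio libraries.

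Skeletal muscle is a mosaic of fibres that differ in the myosin heavy chain they build. Myh7 encodes the slow, type I myosin, Myh2 the fast oxidative type IIA myosin, Myh1 the type IIX and Myh4 the type IIB myosin of the fastest, most glycolytic fibres. Slow and fast fibres also use different troponins, tropomyosins, myosin light chains and calcium pumps. Slow and type IIA fibres burn fatty acids and hold more mitochondria and myoglobin, whereas type IIB fibres rely more on glycogen and glycolysis. In the gastrocnemius of the rat these fibres are zoned, with slow and oxidative fibres gathered in the deep red part and IIB fibres in the outer white part, so a dissected piece can differ in mix from rat to rat. The comparison asks what such differences in fibre make-up look like across the other genes. Myh1 and the fast calcium pump gene Atp2a1 were not analysed here. In bulk muscle, fewer cells of a type and less RNA per cell cannot be told apart.

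The windows around the annotated starts of the 2 ranking genes and of the slow and fast troponin I genes are printed for their letters. They are RefSeq sequences of the GRCr8 build, from 250 bases before to 50 bases after the gene start, read 5′ to 3′ on the gene's strand. Capitals mark matches, on either strand, to CANNTG (the E box bound by MyoD-type factors), CATTCC (the MCAT element bound by TEAD factors), TATAAA or the MEF2 motif.
Myh7, chr15:32438145-32438444, minus strand: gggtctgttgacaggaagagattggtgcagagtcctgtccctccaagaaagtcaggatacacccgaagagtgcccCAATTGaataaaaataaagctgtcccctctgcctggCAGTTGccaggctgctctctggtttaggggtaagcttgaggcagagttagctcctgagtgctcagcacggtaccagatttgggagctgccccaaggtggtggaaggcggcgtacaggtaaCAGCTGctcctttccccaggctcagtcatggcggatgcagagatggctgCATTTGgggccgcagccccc
Tnni1, chr13:49781279-49781578, plus strand: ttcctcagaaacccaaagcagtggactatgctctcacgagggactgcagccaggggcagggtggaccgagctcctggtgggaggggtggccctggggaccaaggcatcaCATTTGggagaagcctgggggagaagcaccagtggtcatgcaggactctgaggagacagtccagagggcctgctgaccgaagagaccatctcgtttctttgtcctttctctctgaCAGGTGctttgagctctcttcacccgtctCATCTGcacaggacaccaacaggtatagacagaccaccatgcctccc
Myh4, chr10:52421898-52422197, plus strand: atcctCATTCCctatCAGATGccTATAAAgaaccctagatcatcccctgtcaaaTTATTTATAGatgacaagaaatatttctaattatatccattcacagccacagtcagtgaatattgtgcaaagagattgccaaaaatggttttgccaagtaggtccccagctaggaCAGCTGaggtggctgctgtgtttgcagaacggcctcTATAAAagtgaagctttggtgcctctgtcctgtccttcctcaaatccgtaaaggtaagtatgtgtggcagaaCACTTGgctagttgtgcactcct
Tnni2, chr1:207024240-207024539, plus strand: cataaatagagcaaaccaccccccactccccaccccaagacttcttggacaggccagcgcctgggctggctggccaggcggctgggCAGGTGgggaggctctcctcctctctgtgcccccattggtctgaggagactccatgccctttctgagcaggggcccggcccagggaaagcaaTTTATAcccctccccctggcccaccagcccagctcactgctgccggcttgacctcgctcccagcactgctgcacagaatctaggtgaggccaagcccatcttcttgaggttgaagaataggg

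The windows of both slow genes held E boxes and none of the other motifs: 4 in Myh7 and 3 in Tnni1. The Myh4 window held 3 E boxes, 1 MCAT element, 3 TATAAA matches and 1 MEF2 match, which overlaps a TATAAA match. The Tnni2 window held 1 E box and 1 TATAAA match. Windows were found by symbol for 13 of 17 slow contractile and 13 of 16 fast contractile genes. An E box lay in 13 of the 13 slow and 10 of the 13 fast windows, against 72.1% of all 33469 windows of this length. TATAAA lay in 2 slow and 5 fast windows (14.2% of all), CATTCC in 1 slow and 4 fast windows (14.2% of all), and MEF2 in 2 slow and 4 fast windows (3.29% of all). These matches describe letters and are not evidence of binding. The windows follow the RefSeq gene start, which was not checked as the start of transcription in muscle. In the Myh7 window an ATG lies just after that start, so motifs missing there cannot be read as missing from its promoter.

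Among the low-ratio libraries the log2 ratio of Myh7 to Myh4 counts was -4.57 in rat 8, -4.36 in rat 4, -4.30 in rat 24, -3.97 in rat 7 and -3.77 in rat 20. Among the high-ratio libraries it was -1.96 in rat 16, -1.50 in rat 32, -1.28 in rat 29, -0.85 in rat 11 and -0.52 in rat 23. At the upper edge there was almost no step, since rat 31, just outside, stood at -1.97. At the lower edge rat 12, just outside, stood at -3.29. Every ratio was below 0, so no library was slow in the sense of more Myh7 than Myh4 counts: there were 23.8 Myh4 counts per Myh7 count in rat 8 and 1.43 in rat 23, in counts that are not divided by transcript length. The label of a slow make-up thus holds relative to the other sedentary libraries. As CPM (counts divided by library size, with TMM scaling over the 30 whole-muscle libraries), Myh7 was 2560 to 4054 at the low end and 11739 to 15448 at the high end, and Myh4 was 50352 to 70933 and 22166 to 45620. Ranked by the slow and fast troponin I genes instead (Tnni1 to Tnni2), 4 of the 5 lowest and 4 of the 5 highest libraries were the same.

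**Figure D1:**
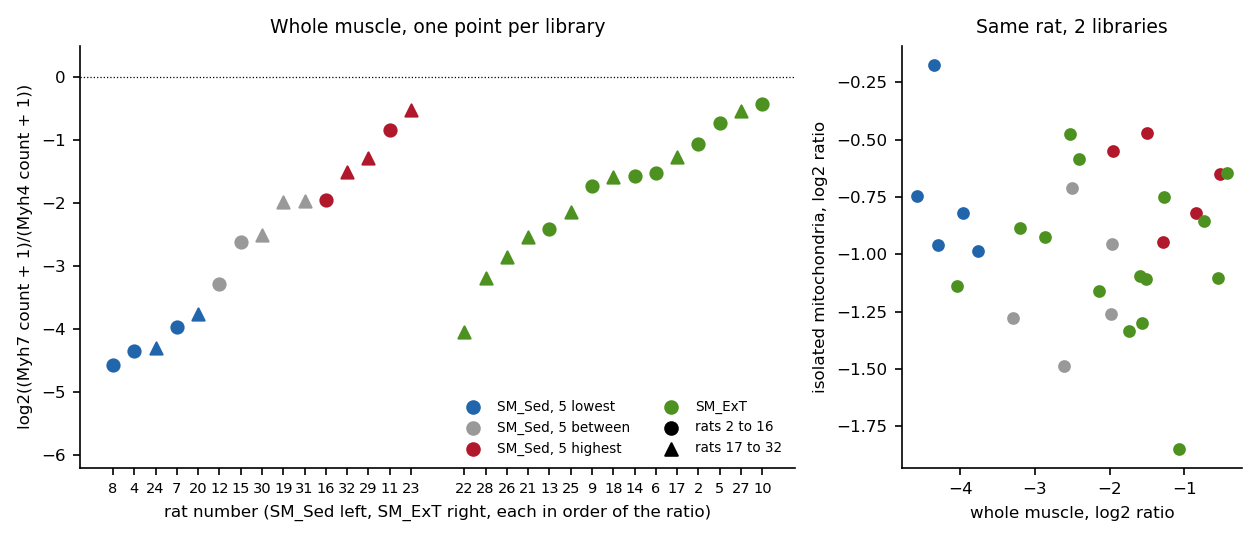
The log2 ratio of Myh7 to Myh4 counts in each sedentary and trained whole-muscle library (left) and of the same rats' mitochondrial libraries (right), with 1 point per rat. Sedentary whole-muscle values run from -4.57 to -0.52 and trained values from -4.05 to -0.43, while the mitochondrial ratios of the high-ratio and low-ratio rats overlap.

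Whole-muscle libraries held 19477976 to 39401323 counts, and the mean total was the same to 3 digits at both ends (2.66e+07). Rats numbered 2 to 16 and 17 to 32 differed across the series, and what the number stands for is not given in the sources used here. The low-ratio libraries came from 3 rats of the first range and 2 of the second, the high-ratio libraries from 2 and 3. Since the ranking used the sedentary counts, their differences are given as a description, as levels, a log2 difference with its standard error (SE) from edgeR and whether the 5 levels at each end overlapped. The test was run where the ranking had used nothing: the slope of each gene on the same ratio across the 15 trained whole-muscle libraries, of other rats, as log2 change per unit of log2 ratio. A gene is called when its edgeR p-value, adjusted by Benjamini-Hochberg over all genes tested, is under 0.05. Replicates are separate rats. Values per library are listed for rats 8, 4, 24, 7 and 20 (low) and then rats 16, 32, 29, 11 and 23 (high).

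The slow contractile genes were higher in every high-ratio library than in any low-ratio library. Of the 16 symbols in this list besides Myh7, 14 were in the table and all 14 passed the low-count filter. All 14 were higher at the high end without overlap, with a median log2 difference of 1.78, where 4.01% of the 13497 genes tested were higher without overlap. Tnni1, the slow troponin I, was at 155, 211, 172, 219 and 389 CPM in the low-ratio libraries and at 716, 805, 728, 1136 and 1015 CPM in the high-ratio ones. Rat 20 was the highest of the low end and still well under rat 16, the lowest of the high end. The log2 difference was 1.94 (SE 0.24, n = 5 and 5). Atp2a2, the slow-fibre calcium pump SERCA2, was at 667, 659, 755, 773 and 1138 CPM and then at 2105, 2578, 2524, 2975 and 3510 CPM. Its ends lay far apart as well, with a log2 difference of 1.77 (SE 0.17). Myl2, the regulatory light chain shared by slow muscle and ventricle, was at 127, 172, 98.8, 168 and 233 CPM and then at 533, 667, 564, 872 and 598 CPM (log2 difference 2.01, SE 0.21).

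In the trained rats all 14 slow genes rose with the ratio, where 3.34% of the 12732 genes tested had a called positive slope. Their median slope was 0.58, and the smallest was 0.15. The slope was 0.69 for Tnni1 (SE 0.061, adjusted p = 7.6e-07), 0.69 for the slow tropomyosin Tpm3 (SE 0.070, adjusted p = 3.9e-06), 0.68 for the slow troponin T Tnnt1 (SE 0.066, adjusted p = 2.1e-06) and 0.92 for the slow troponin C Tnnc1 (SE 0.107, adjusted p = 1.3e-04). Within rats 2 to 16 the Tnni1 slope was 0.72, and within rats 17 to 32 it was 0.67. All 14 slopes stayed positive within each range, with 2 called among the 7 rats of the first (0.0557% of all genes had a called positive slope) and 10 among the 8 of the second (0.449%). With the range as a term 11 were called (1.25%). Mybpc1, a myosin binding protein found in both slow and fast fibres, had the smallest slope, and its call was kept in 2 of the 15 fits that each left out 1 trained library. The call of Sln, encoding the calcium pump inhibitor sarcolipin, was kept in 10 of them, and Actn2 lost its call without rat 22. Reads of the near-identical Myh7 and Myh6, and of the tropomyosin genes, could be split between copies by the counting, which makes their levels less certain.

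**Figure D2:**
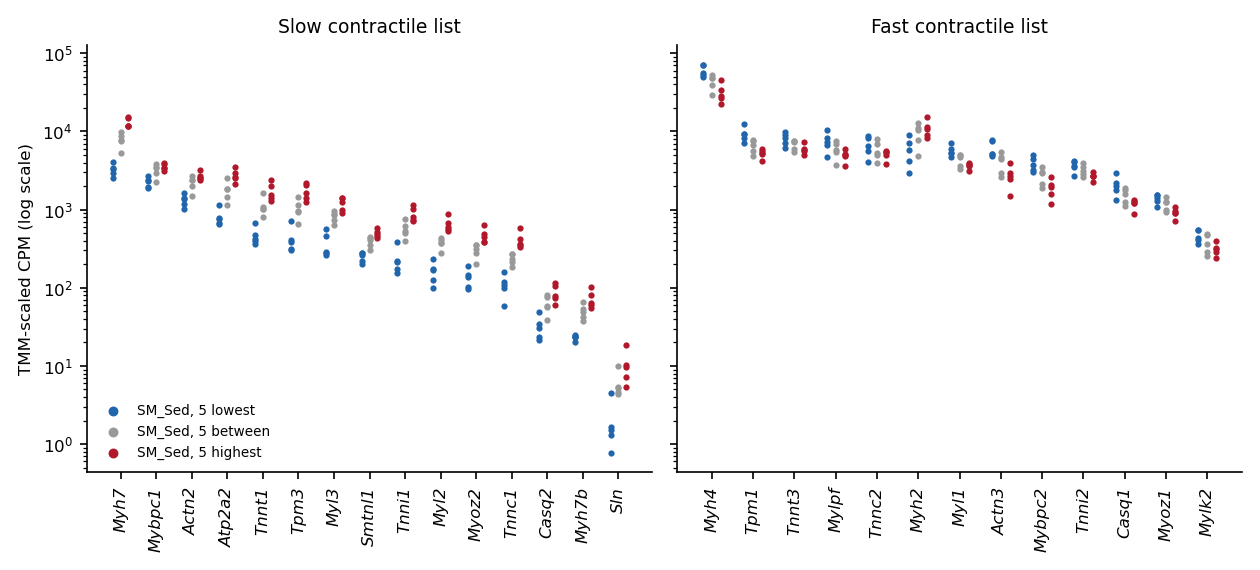
Levels in CPM on a log axis of slow and fast contractile genes in the 5 low-ratio, 5 intermediate and 5 high-ratio sedentary libraries, with 1 point per rat. Tnni1 runs from 155 to 389 CPM at the low end and from 716 to 1136 CPM at the high end, while Tnni2 overlaps between the ends.

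The fast contractile genes moved less, and not all in one direction. Of 15 symbols besides Myh4, 12 were in the table and passed the filter. In the sedentary libraries 6 of the 12 were lower at the high end without overlap (2.92% of all genes tested), and the median log2 difference was -0.60. Actn3, the alpha-actinin of fast fibres, was at 7710, 7595, 4826, 5181 and 5153 CPM in the low-ratio libraries and at 3990, 2971, 2672, 2454 and 1476 CPM in the high-ratio ones. Rat 23, with the highest ratio, had the lowest level, and the log2 difference was -1.18 (SE 0.23). Mybpc2, the fast myosin binding protein, was at 4396, 4976, 3026, 3719 and 3222 CPM and then at 2595, 2076, 1944, 1602 and 1188 CPM (log2 difference -1.05, SE 0.20). Tnni2, the fast troponin I, overlapped: it was at 3530, 4204, 2696, 4040 and 3602 CPM and then at 3070, 2721, 2690, 2657 and 2222 CPM, with a log2 difference of -0.44 (SE 0.14).

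In the trained rats edgeR called 4 of the 12 fast genes as falling with the ratio (2.36% of all genes tested fell) and none as rising, with a median slope of -0.10. DESeq2 called 5 as falling (4.23% of all genes) and 1 as rising (6.02%). The 4 called by edgeR were Actn3 (slope -0.39, SE 0.090, adjusted p = 0.017), Mybpc2 (-0.32, SE 0.063, adjusted p = 0.0046), Tpm1 (-0.25, SE 0.062, adjusted p = 0.020) and Myoz1, a Z-disc protein of fast fibres (-0.17, SE 0.045, adjusted p = 0.028). A fit with the rat range as a term called 3 of the 4 (0.503% of all genes fell), Actn3 standing at an adjusted p of 0.056. Within rats 2 to 16 and within rats 17 to 32 none was called (0% and 0.071% of all genes fell), although each slope stayed negative. Leaving out 1 trained library in turn left 1 to 5 of the list called lower, the fewest without rat 10. The fast troponins, light chains and calsequestrin had slopes of -0.10 or nearer 0 that were not called: -0.05 for Tnni2 (adjusted p = 0.60), -0.09 for Tnnt3 (0.28), -0.05 for Mylpf (0.78), 0.04 for Tnnc2 (0.82), -0.10 for Myl1 (0.32) and -0.10 for Casq1 (0.41). The slope of Tnnc2 was negative under other settings, for example -0.13 with the rat range as a term.

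Myh2, the IIA myosin, went the other way from Myh4. It was at 2923, 4138, 5716, 7039 and 9106 CPM in the low-ratio libraries and at 9103, 8191, 11432, 10884 and 15071 CPM in the high-ratio ones. Rat 20 overlapped with rats 16 and 32, and the log2 difference was 0.91 (SE 0.26). In the trained rats its slope was 0.16 (SE 0.052, adjusted p = 0.065), which edgeR did not call. DESeq2 called 1 of the 2 fast contractile genes with a positive slope, Myh2 and Tnnc2 (6.02% of all genes). The skeletal myosin genes lie in a cluster of near-identical copies, so the split of reads between them is uncertain.

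Across the whole table, 541 genes were higher and 394 lower at the high end without overlap, which is 6.93% of the 13497 tested. Of these 935 genes, 881 had an intermediate mean in the 5 libraries between the ends. The edgeR fit of the same 10 libraries put 583 genes higher (4.32%) and 377 lower (2.79%), 7.11% in all, and with library totals in place of TMM 412 and 408, from which nothing is read since the ranking used these counts. In the trained libraries 725 of 12732 genes were called (5.69%), 425 with a positive and 300 with a negative slope. DESeq2 called 1305 (10.2%), 767 with a positive (6.02%) and 538 with a negative slope (4.23%), and library totals alone gave 278 (2.18%) and 404 (3.17%), 5.36% in all. Of the 724 called genes that were also tested in the sedentary libraries, 706 (97.5%) differed there in the same direction, against 68.7% of all 12731 genes tested in both. Of the 724, 297 were also among the sedentary genes without overlap, and none of the 18 genes of opposite direction was. A fit over all 30 whole-muscle libraries tested whether the slope differed between trained and sedentary rats. It called 0 of 13568 genes (0%) by edgeR's quasi-likelihood test, with 1224 at an unadjusted p under 0.05. This fit includes the sedentary libraries that were ranked, and 0 calls do not show that the slopes are equal.

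The number of called genes depended on the rats. In the trained libraries 223 genes (1.75%) were called with the rat range as a term, 7 (0.0557%) within rats 2 to 16 and 66 (0.52%) within rats 17 to 32. Leaving out 1 trained library gave 280 (without rat 10) to 1181 calls (without rat 27), with 362 without rat 5, 403 without rat 26 and 427 without rat 22. Without the 2 libraries farthest from the median ratio, rats 22 and 28, 153 genes (1.22%) were called, 79 with a positive (0.632%) and 74 with a negative slope (0.592%).

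**Figure D3:**
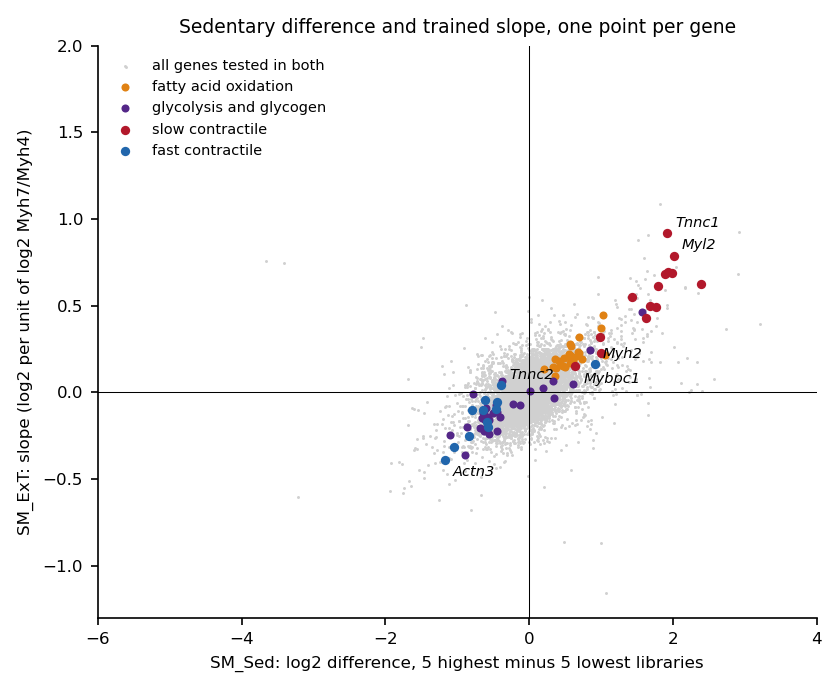
Each point is a gene: the log2 difference between high-ratio and low-ratio sedentary libraries (horizontal) against the slope on the ratio in the 15 trained libraries (vertical). Slow contractile genes lie at the upper right and most fast contractile genes at the lower left; of the 724 called genes tested in both, 706 have the same direction on both axes.

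Outside the lists, the largest called slopes among genes above 5 CPM that also did not overlap in the sedentary libraries included AC128207.1, an unnamed locus, and Myom3, encoding a myomesin of the sarcomere's M band. AC128207.1 was at 17.9, 21.5, 16.1, 11.1 and 42.5 CPM in the low-ratio libraries and at 117, 184, 133, 213 and 184 CPM in the high-ratio ones. That is a log2 difference of 2.92 (SE 0.36), and its trained slope was 0.92 (SE 0.178, adjusted p = 0.0096), with an adjusted p of 0.053 once the rat range was a term. Myom3 was at 35.9, 43.4, 32.8, 34.4 and 66.1 CPM and then at 141, 185, 139, 193 and 222 CPM (log2 difference 2.04, SE 0.20), and its slope was 0.72 (SE 0.089, adjusted p = 1.4e-04). Among the genes that fell, Adgrb2, an adhesion receptor, was at 80.1, 70.7, 45.2, 53.6 and 39.9 CPM and then at 37.8, 17.8, 15.3, 9.29 and 6.85 CPM, with a slope of -0.55 (SE 0.128, adjusted p = 0.023). Mss51, a mitochondrial protein of fast muscle, was at 84.8 to 146 CPM and then at 26.5 to 76.8 CPM, with a slope of -0.53 (SE 0.129, adjusted p = 0.030). Both lost their calls with the rat range as a term, and without rat 5, 10, 26 or 28. Sfxn5 (slope -0.45, adjusted p = 0.0053), Gpm6b (-0.41, 0.0015), Gdf1 (-0.35, 0.0010), Plcd4 (-0.35, 0.016) and Fgf2 (-0.35, 0.038) also fell.

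Most genes of fatty acid handling rose with the ratio. All 27 measured members of this list had a positive slope in the trained rats, 21 of them called by edgeR (3.34% of all genes tested) and 22 by DESeq2 (6.02%), with a median of 0.20. In the sedentary libraries 15 of the 27 were higher at the high end without overlap (4.01% of all genes) and the median log2 difference was 0.57. Fabp3, the fatty acid carrier of heart and slow muscle, was at 79.8, 101, 123, 163 and 221 CPM and then at 264, 281, 236, 331 and 298 CPM. Every high-ratio library was above rat 20, the top of the low end, and the log2 difference was 1.03 (SE 0.23). Its slope was 0.44 (SE 0.062, adjusted p = 2.2e-04). Slc25a20, which carries acylcarnitine into mitochondria, had a slope of 0.32 (adjusted p = 1.0e-04), the lipid droplet protein Plin5 0.37 (0.0050) and the short-chain dehydrogenase Acads 0.28 (0.0031). The rat range as a term left 14 of the 27 called (1.25% of all genes), within rats 2 to 16 none (0.0557%) and within rats 17 to 32 there were 3 (0.449%), and leaving out 1 library gave 17 to 23.

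For the nuclear genes of the respiratory chain the count of calls depended on the tool and on the rats. Of 33 complex I genes tested in the trained rats edgeR called 7 and of 37 genes of complexes II to V it called 8, all with positive slopes (3.34% of all genes). DESeq2 called 17 and 23, also all positive (6.02% of all genes). The median slopes were 0.14 and 0.15. By edgeR 0 of the 70 were called with the rat range as a term, within rats 2 to 16 or within rats 17 to 32, although 68, 70 and 64 of them had a positive slope (1.25%, 0.0557% and 0.449% of all genes were called positive in these fits). Leaving out 1 library gave 0 (without rat 22) to 21 calls for complex I and 1 (without rat 5) to 23 for complexes II to V. Sdhb, a subunit of succinate dehydrogenase, was at 168, 218, 183, 266 and 265 CPM and then at 299, 265, 326, 350 and 324 CPM in the sedentary libraries. Rats 7 and 20 overlapped with rat 32. Its slope was 0.21 (SE 0.045, adjusted p = 0.0073). In the sedentary libraries 3 of the 71 tested genes were higher at the high end without overlap, a share close to the 4.01% of all genes. Of 25 genes of the citrate cycle and pyruvate entry edgeR called 4 higher in the trained rats (3.34% of all genes), DESeq2 8 (6.02%) and edgeR with the rat range as a term 2 (1.25%). Among the 4 were the malate dehydrogenase Mdh1 (slope 0.28), the isocitrate dehydrogenase Idh2 (0.20) and the pyruvate carrier subunit Mpc2 (0.14). Idh2, at 293 to 443 CPM and then at 577 to 690 CPM, did not overlap in the sedentary libraries, the 1 of 25 to do so, where 4.01% of all genes were higher without overlap.

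Of 31 measured genes of glycolysis and glycogen 10 fell (2.36% of all genes) and 2 rose (3.34%) in the trained rats, with a median slope of -0.12. Between the sedentary ends 10 were lower (2.92% of all genes) and 2 higher (4.01%) without overlap, with a median log2 difference of -0.56. Pgm1, which interconverts glucose phosphates from glycogen, was at 839, 915, 714, 809 and 811 CPM and then at 683, 502, 616, 496 and 499 CPM, and its slope was -0.24 (SE 0.042, adjusted p = 0.0015). Slc16a3, the lactate exporter MCT4, was at 238 to 277 CPM and then at 167 to 232 CPM, with a slope of -0.22 (SE 0.046, adjusted p = 0.0056). The 2 that rose were Ldhb, the lactate dehydrogenase subunit of oxidative tissue, and Gbe1, the glycogen branching enzyme. Ldhb was at 70.3, 83.3, 90.8, 133 and 167 CPM and then at 270, 266, 277, 431 and 378 CPM. The ends did not overlap, the log2 difference was 1.57 (SE 0.24), and the slope was 0.47 (SE 0.041, adjusted p = 7.6e-07). Including the rat range as a term, 7 fell (0.503% of all genes) and 2 rose (1.25%), and leaving out 1 library gave 5 (without rat 10) to 12 that fell.

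Among 6 measured genes of oxygen and phosphate buffering 2 rose (3.34% of all genes): Ca3, the carbonic anhydrase of slow fibres (slope 0.66, SE 0.093, adjusted p = 3.1e-04), and myoglobin, Mb (0.35, SE 0.072, adjusted p = 0.0069). Ca3 was at 402 to 1024 CPM and then at 1602 to 2913 CPM, and Mb at 937 to 1875 CPM and then at 2154 to 3140 CPM. Of 26 genes of calcium release and excitation 6 fell (2.36% of all genes) and 1 rose, a share near the 3.34% of all genes. With the rat range as a term 2 fell (0.503%) and 1 rose (1.25%). The sodium pump subunits moved apart: Atp1b2 was at 317, 346, 231, 240 and 232 CPM and then at 168, 114, 137, 100 and 61.5 CPM (slope -0.40, SE 0.091, adjusted p = 0.018), whereas Atp1b1 was at 63.2, 87.0, 83.9, 101 and 134 CPM and then at 168, 139, 172, 165 and 201 CPM (slope 0.25, SE 0.039, adjusted p = 5.6e-04). The calcium release channel Ryr1 (slope -0.19, adjusted p = 0.033) and the junctional protein Jph2 (-0.18, 0.017) fell as well. Both lost their calls with the rat range as a term. The 6 that fell were reduced to 0 without rat 10.

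Regulators of fibre type were split. Of 38 measured members 6 rose (3.34% of all genes) and 3 fell (2.36%), and the median slope was 0.00 (-0.02 with library totals). Including the rat range, 2 rose (1.25%) and 3 fell (0.503%), and leaving out 1 library gave 2 to 8 that rose and 2 to 5 that fell. Maf, a large Maf factor tied to IIB fibres, was at 62.1, 67.2, 45.5, 38.8 and 50.0 CPM and then at 34.7, 28.3, 24.5, 18.8 and 15.98 CPM. The ends did not overlap (log2 difference -1.12, SE 0.22), and its slope was -0.38 (SE 0.055, adjusted p = 2.8e-04). Ankrd2, a stretch-responsive protein of slow muscle, rose with a slope of 0.65 (SE 0.110, adjusted p = 0.0032), from 40.4 to 154 CPM at the low end and 203 to 274 CPM at the high end. The LIM proteins Csrp3 (slope 0.88, SE 0.238, adjusted p = 0.047) and Fhl2 (0.49, SE 0.121, adjusted p = 0.028) rose too, and both lost their calls with the rat range as a term. The call of Csrp3 was kept in 5 and that of Fhl2 in 12 of the 15 fits without 1 library. The others that rose were Esrrb (slope 0.34), Prox1 (0.29) and Ppargc1a (0.15), and the others that fell were Mafa (-0.31) and Sox6 (-0.14), a repressor of slow fibre genes. No gene of the 12 tested for control of muscle mass, such as the ubiquitin ligases Trim63 and Fbxo32 and the growth inhibitor myostatin, was called by edgeR, and DESeq2 called 1. Between the sedentary ends 3 of the 12 did not overlap (6.93% of all genes). The growth factor Igf2 was at 36.4 to 46.2 CPM and then at 46.9 to 64.0 CPM, Igf1 at 26.8 to 39.2 and then at 18.4 to 26.002 CPM, and myostatin (Mstn) at 6.17 to 13.8 and then at 2.18 to 6.01 CPM. In the trained rats the slope of Mstn was -0.38 (adjusted p = 0.27) and that of Igf1 -0.15 (adjusted p = 0.22).

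**Figure D4:**
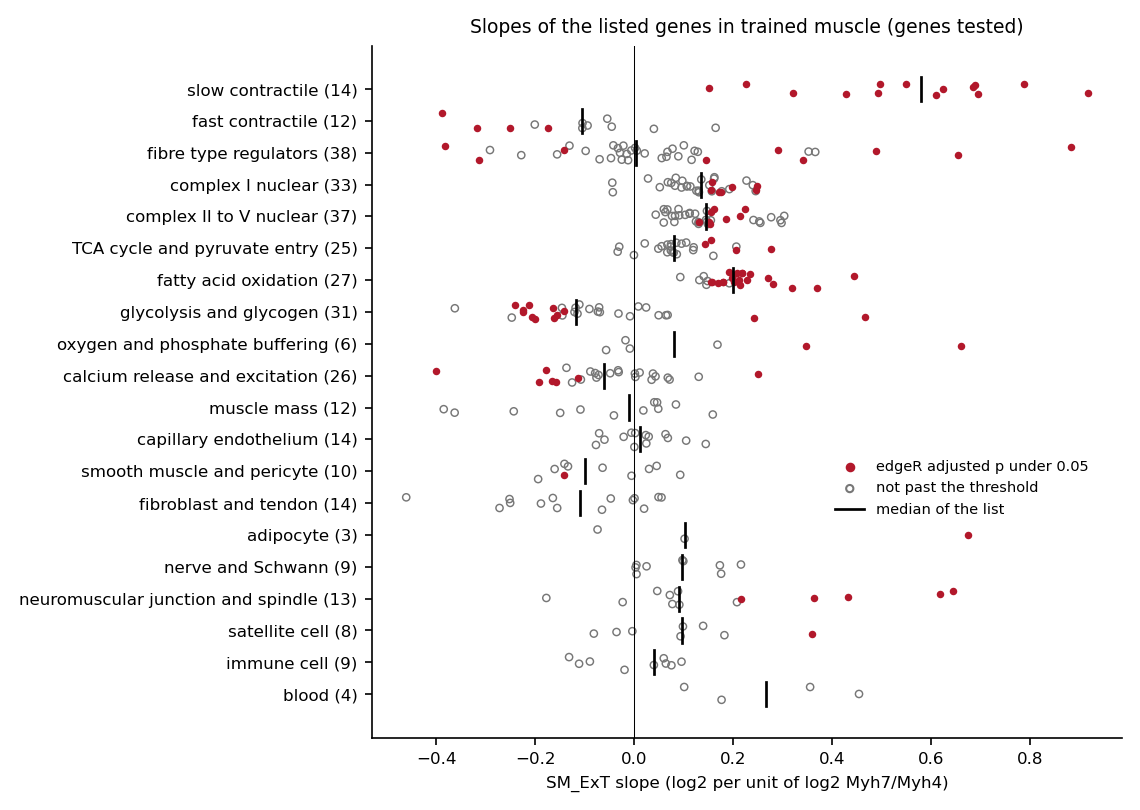
Slopes on the Myh7 to Myh4 ratio in the 15 trained libraries, 1 point per gene and 1 row per gene list, with called genes marked. All 14 slow contractile genes lie above 0, and the medians of the fatty acid and glycolysis lists are 0.20 and -0.12. The capillary, fibroblast, nerve, immune and blood lists hold no called gene, where 3.34% of all genes were called positive and 2.36% negative.

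Markers of other cell types were read beside these groups. In the sedentary libraries, fibroblast and tendon markers summed to 3356 to 13429 CPM at the low end and 2843 to 4511 CPM at the high end, and 16 of 16 had a lower fitted level at the high end. Nerve and Schwann cell markers went the other way, at 35.5 to 67.1 CPM and 61.2 to 171 CPM, with 10 of 10 tested higher. Capillary endothelium summed to 1071 to 1601 and 1363 to 1828 CPM, smooth muscle and pericytes to 2216 to 2648 and 2533 to 2733 CPM, adipocytes to 99.8 to 137 and 106 to 136 CPM, immune cells to 110 to 193 and 80.2 to 153 CPM, and blood to 70.8 to 122 and 95.4 to 166 CPM. The smooth muscle and pericyte list includes the desmin gene Des, which skeletal muscle fibres also express, so its sum does not measure those cells alone. Higher fitted levels were found for 14 of 14 capillary, 9 of 10 smooth muscle, 2 of 5 adipocyte, 1 of 10 immune and 5 of 5 blood genes tested. Over all genes 6608 of 13497 were higher. Cnp of the nerve list, Myh11 and Tagln of the smooth muscle list and Cidea of the adipocyte list were higher at the high end without overlap (4.01% of all genes). The other tested members of these lists overlapped. The T cell gene Cd3d had at most 2 counts in any of the 10 libraries and the globin gene Hbb-bs had 0, whereas the adipocyte genes Lep and Adrb3 were at 0 in some libraries at each end. In the trained rats none of 14 capillary, 14 fibroblast and tendon, 9 nerve, 9 immune and 4 blood genes was called by edgeR. Of all genes, edgeR called 3.34% with a positive and 2.36% with a negative slope, so few calls would fall in lists this short. DESeq2 called 1 blood gene, with a positive slope (6.02% of all genes). Of 10 smooth muscle genes Mylk fell (slope -0.14, adjusted p = 0.038, not called with the rat range as a term), and of 3 tested adipocyte genes Cidea, a lipid droplet gene, rose (0.67, SE 0.076, adjusted p = 1.2e-05). The part of these cells in the muscle gene differences was not tested.

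Genes of the neuromuscular junction and muscle spindle included several that rose. Of 13 tested members 5 rose (3.34% of all genes), with a median slope of 0.09, and 3 rose with the rat range as a term (1.25%) and 3 to 5 without 1 library. Between the sedentary ends 4 were higher (4.01% of all genes) and 1, Rapsn, lower (2.92%) without overlap. Chrnd, the delta subunit of the acetylcholine receptor, was at 3.96, 5.12, 5.58, 7.22 and 7.28 CPM in the low-ratio libraries and at 14.6, 16.7, 15.7, 17.96 and 17.7 CPM in the high-ratio ones. Levels at the high end were tightly grouped, the log2 difference was 1.49 (SE 0.14), and the slope was 0.64 (SE 0.059, adjusted p = 1.2e-06). Colq, which anchors acetylcholinesterase at the junction (slope 0.43, adjusted p = 0.0027), Chrna1 (0.36, 0.019) and Chrnb1 also rose. Myh6, the alpha myosin of heart and of some specialised fibres, was at 1.43 to 5.80 CPM and then at 6.29 to 11.4 CPM, with a slope of 0.62 (SE 0.137, adjusted p = 0.017). Its call was lost with the rat range as a term and without rat 10 or 22, and reads of Myh7 could be counted in it. Of 8 satellite cell markers 1 rose (3.34% of all genes), Myf5 (0.36, adjusted p = 0.026, called neither with the rat range as a term nor without rat 10). Between the sedentary ends 3 of the 8 were higher (4.01% of all genes) and 1 lower (2.92%) without overlap.

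The share of counts from the mitochondrial genome was higher at the high end, with overlap. It was 22.1%, 25.2%, 24.1%, 29.7% and 32.1% in the low-ratio libraries and 30.2%, 31.8%, 35.9%, 32.9% and 35.5% in the high-ratio ones. Rat 20 exceeded rats 16 and 32. Over the 15 trained rats, 5 measures of the libraries were correlated with the ratio, with permutation p-values. For the mitochondrial-genome share Pearson's r was 0.60 (p = 0.017, 0.043 after Benjamini-Hochberg adjustment over 5) and Spearman's rho 0.55 (p = 0.036, adjusted 0.069). Without the 2 rats farthest from the median r was 0.67, and within the 2 rat ranges it was 0.69 and 0.49. The share taken by the 10 most abundant nuclear genes fell with the ratio (permutation r -0.66, adjusted p = 0.036; rho -0.70, adjusted p = 0.024; r -0.55 and -0.59 within the ranges). The share of nuclear ribosomal RNA had an r of -0.52 (permutation p = 0.043, adjusted 0.072), -0.57 without the 2 farthest rats and 0.11 and -0.42 within the ranges. Its sedentary mean was 0.098% ± 0.062 (SD, n = 5) at the low and 0.18% ± 0.21 at the high end, and its part in the gene differences was not tested. Library total had an r of -0.083 (permutation p = 0.77) and the share of genes of the ribozyme biotype one of -0.22 (permutation p = 0.44). Among the 13 mRNAs of the mitochondrial genome the median slope was 0.25. DESeq2 called 8 of them, all positive (6.02% of all genes), and edgeR 1 (3.34%), Mt-co1 (0.25, SE 0.067, adjusted p = 0.032, not called with the rat range as a term).

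**Figure D5:**
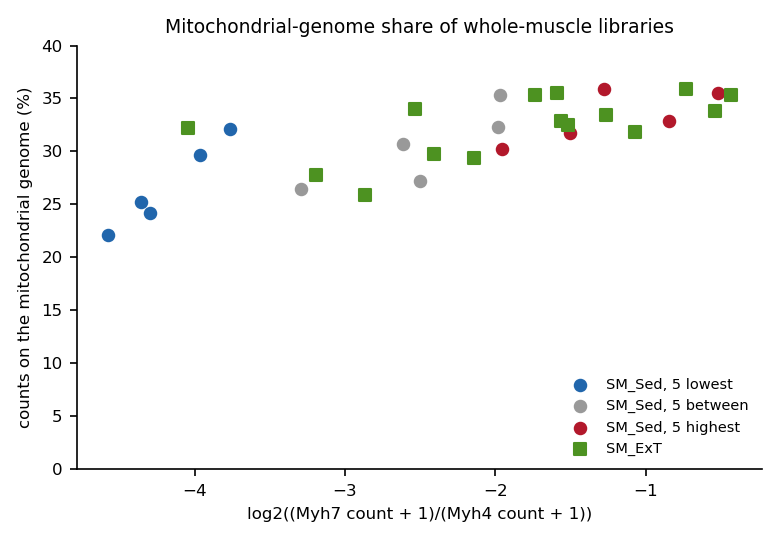
Percent of counts from mitochondrial-genome genes against the log2 ratio of Myh7 to Myh4 in whole-muscle libraries, 1 point per rat, sedentary and trained rats marked apart. Sedentary low-ratio libraries span 22.1% to 32.1% and high-ratio libraries 30.2% to 35.9%, and Pearson's r over the 15 trained rats is 0.60.

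Isolated mitochondria of the same 10 sedentary rats gave libraries that the ranking had not used. These libraries held 7.12e+05 to 4.09e+06 counts, of which few were myosin, at 82 to 290 for Myh7 and 105 to 575 for Myh4. With so few myosin reads left after cleaning with proteinase K and RNase A, contractile genes here cannot show the muscle's fibre mix. The comparisons of the ratio and of contractile genes that follow therefore do not bear on it. Their log2 ratio was -0.99 to -0.17 in the low-ratio rats and -0.94 to -0.47 in the high-ratio rats, which overlap. The means differed by 0.050 (exact two-sided permutation p = 0.79, n = 5 and 5, smallest p possible 0.0079). Over all 15 sedentary rats the ratio in mitochondria and in whole muscle had a Pearson's r of -0.023 (permutation p = 0.94) and a rho of 0.18 (p = 0.53), and without the 2 farthest rats r was -0.072. Over the 15 trained rats r was -0.13 (permutation p = 0.65) and rho -0.032 (p = 0.91), and r was -0.22 without the 2 farthest. Adjusted over both arms, no correlation p fell below 0.91. The share of mitochondrial-genome counts in the isolated mitochondria was 57.6% ± 18.03 (SD, n = 5) in the low-ratio rats and 48.9% ± 24.9 in the high-ratio rats (exact permutation p = 0.56). Of 19243 genes tested 0 were called by edgeR (0%) and 0 by DESeq2, with 1187 at an unadjusted edgeR p under 0.05. With 5 rats at each end, 0 calls do not show that the preparations are alike. A fit with the rat range as a term called 14 (0.0728%), 11 higher and 3 lower in the high-ratio rats. The 13 tested slow contractile genes had a median log2 difference of -0.12, with 3 above 0, and the 26 fatty acid genes one of -0.00. Fatty acid genes are nuclear genes whose mRNAs met the same cleaning, so their value does not bear on the fibre mix either.

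Hearts of the same animals were set against the ratio of their leg muscle in 14 rats, with arm as a term. Among the ranked rats, only rat 20 of the low end and rats 16, 29 and 32 of the high end had a heart library. Of 14488 genes tested in the left ventricle edgeR called 0 (0%), with 836 at an unadjusted p under 0.05, and DESeq2 called 9 (0.0621%). With so few rats, 0 calls do not show that heart genes are unrelated to the ratio. Without the low-count filter edgeR called 29 (0.139%), and among the 7 sedentary hearts alone 4 (0.0292%). The median slope of 12 slow contractile genes, most of which the ventricle also uses, was 0.03, and that of 27 fatty acid genes was 0.08.

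The difference in the ratio itself between arms did not pass the test over all rats. The mean was -2.63 ± 1.34 (SD, n = 15) in sedentary and -1.84 ± 1.03 (n = 15) in trained libraries, a difference of 0.79 (permutation p = 0.084), and 0.74 for Tnni1 to Tnni2 (permutation p = 0.051). The arms differed by 1.73 in rats 2 to 16 (exact permutation p = 0.015, n = 7 and 7) and by -0.044 in rats 17 to 32 (exact permutation p = 0.94, n = 8 and 8). In the contrast of trained against sedentary whole muscle, edgeR called 28 of 13568 genes (0.206%) and, with the ratio as a term, 11 (0.0811%), 9 of them in both. With the rat range as a further term these numbers were 45 (0.332%) and 14 (0.103%). The 14 slow contractile genes had a median training difference of 0.33 without and -0.05 with the ratio, none called either way. The 27 fatty acid genes had 0.24 and 0.08, again with none called. Both lists rise with the ratio of these same libraries, so a smaller difference with it as a term could be foreseen. These fits include the ranked sedentary libraries. Whether fibre mix accounts for training differences was not tested. Among the 9 genes called in both, chosen here after their values were seen, Cox7a1, a muscle subunit of cytochrome oxidase, had a log2 difference of 0.75 (SE 0.14, adjusted p = 0.016) without and 0.57 (SE 0.11, adjusted p = 0.025) with the ratio. Its counts were low: the mean was 1.98 CPM in the low-ratio, 3.53 CPM in the high-ratio and 4.92 CPM in the trained libraries. Ncf1, a subunit of the NADPH oxidase, was called with the ratio (0.52, adjusted p = 0.0023) and not without it (0.80, adjusted p = 0.10). In a fit over all 30 libraries with the arm as a term, the ratio was called for 2779 genes (20.5%), and for 3063 (22.6%) with the rat range as a term; this fit includes the sedentary libraries that were ranked.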

How the data were processed

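RNA was sequenced as ribosomal-RNA-depleted libraries of total RNA, per the labels' protocols. The authors deposited raw counts per gene in 1 table each for SM, MT and LV. The submitters' processing notes name FastQC 0.74, cutadapt 4.6, STAR 2.7.11a and HTSeq and the build mRatBN7.2; the annotation release and the strand setting are not given in the sources used here, so overlapping and antisense genes cannot be told apart. From these counts, edgeR 4.0.16 (R 4.3.3) fitted quasi-likelihood models with TMM scaling after filterByExpr; DESeq2 1.42.0 was an alternative. SE is the log2 value divided by the square root of F. Levels are TMM-scaled CPM. Single values were compared with permutation tests in scipy 1.17.1, exact under 10 per group and otherwise with 100000 resamples, two-sided. The scripts were tested on simulated data. Replicates of 1 group differed by more than sampling noise (chi-square over degrees of freedom at least 14.4 in sedentary SM). Of 30560 genes 6518 have no symbol, and 40 of 407 listed symbols were not found.

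The ranking, the members and the 20 gene lists were chosen with earlier results of these data known. Genes are named by 3 rules: all tested contractile genes; up to 4 called genes per other list, by size of the trained slope; and up to 10 each way across the table with at least 5 CPM, called, and without overlap in the sedentary libraries. Genes named outside these rules were chosen after their values were seen. The fits on slope differences, on training with the ratio, on the ratio over 30 libraries and without each trained library were added after seeing the data. Alternatives changed the scaling, the filter, the tool, the ratio, the number of libraries and the rat range. One result that the naming rules select is not reported here.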

Additional observations from a re-analysis of the deposited data

Results flagged for a closer look

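In 9 of 160 groups of 5 sedentary libraries, 1 library stood apart from the other 4 by Dixon's criterion, which chance meets in about 1 of 20 groups. The number found is close to that rate, so the libraries below are listed as values only. In 4 of them rat 20, the low-ratio library nearest the middle of the ranking, was the highest of the low end: Atp2a2 at 1138 CPM, Tpm3 at 725 CPM, Tnni1 at 389 CPM and Colq at 7.14 CPM. Rat 7 was the lowest of the low end for Myh7b, at 20.0 CPM, and the highest for Sln, at 4.49 CPM. At the high end rat 23 was the lowest for Casq1, at 882 CPM. Rat 29 was the highest of the high end for Slc16a3, at 232 CPM, and the lowest for Myh6, at 6.29 CPM. In each of these 9 groups the levels at the 2 ends still did not overlap.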

How the results depend on the processing

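No paired analysis was possible because the compared libraries come from different rats and the arms share no rat number. Called genes in the trained libraries numbered 1305 with DESeq2, 165 with the Tnni1 to Tnni2 ratio, 223 with the rat range as a term, 7 and 66 within the ranges, 153 without the 2 farthest libraries, 156 in 5 against 5, and 280 to 1181 without 1 library. For the sedentary ends the numbers were 1538 as a slope over 15 libraries and 583 to 1055 without 1 library. Called genes in mitochondria were 14 (0.0728%) with the rat range as a term. In the left ventricle they were 9 with DESeq2, 29 without the filter and 4 in sedentary hearts alone. For training they were 45 with the rat range, 11 with the ratio and 14 with both. The mitochondrial ratio difference was -0.0475 in 4 against 4 and -0.013 to 0.19 without 1 library, and the mitochondrial-genome share in mitochondria differed by -16.9 to 0.22 points. The muscle to mitochondria correlation was 0.37 in sedentary rats 17 to 32 and 0.054 for Tnni1 to Tnni2 in trained rats. The arms' ratio differed by 1.73 and -0.044 within the ranges. Of the named slopes Tnnc2 changed sign, to -0.011 (Tnni ratio), -0.13 (rat range term), -0.10 and -0.14 (within ranges) and -0.0027 (5 against 5). The cause was not tested. The mitochondrial ratios rest on 82 to 290 Myh7 counts a library.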

Other observations

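Small heat shock proteins, which hold muscle proteins in shape under load, were not among the fixed lists and were looked at after their values were seen. In the sedentary libraries Cryab was at 284 ± 67.2 CPM (SD, n = 5) at the low end and 654 ± 95.7 CPM at the high end, Hspb6 at 320 ± 64.7 and 628 ± 109 CPM, and Hspb7 at 89.9 ± 26.5 and 264 ± 43.2 CPM. The levels of these 3 did not overlap between the ends. In the trained rats their slopes were 0.53 (SE 0.076, edgeR adjusted p = 3.1e-04), 0.37 (SE 0.052, adjusted p = 1.6e-04) and 0.60 (SE 0.11, adjusted p = 0.0070), and all 3 were called with the rat range as a term. Hspb8, at 144 ± 8.70 and 147 ± 10.4 CPM, had a slope of 0.01 (adjusted p = 0.91), and Hspb1 (0.13, adjusted p = 0.35), Hspb2 (0.27, adjusted p = 0.11) and Hspb3 (0.10, adjusted p = 0.27) were not called.

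Other genes, also chosen after their values were seen, are given by their values. Actc1, the cardiac actin, was at 16.7 ± 4.18 CPM (SD, n = 5) at the low end and 43.5 ± 7.23 CPM at the high end, with a trained slope of 0.55 (SE 0.089, adjusted p = 0.0019). Lmod2, a leiomodin of thin filaments, was at 118 ± 39.9 and 405 ± 113 CPM (slope 0.38, SE 0.063, adjusted p = 0.0012). Fhl1 was at 868 ± 280 and 2082 ± 507 CPM (slope 0.43, SE 0.062, adjusted p = 2.4e-04). Aqp7, a glycerol channel, had the slope 0.77 (SE 0.088, adjusted p = 3.0e-05), and its levels at the ends overlapped.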
